A study of Mus musculus with 6 samples.

Results

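Uba6, an enzyme that activates ubiquitin, and its relatives were followed in mammary fat pads of mice with and without the peroxisomal channel protein Pxmp2. The set held 9 genes, and its members were the probe sets that the platform annotation gives exactly 1 gene symbol equal to one of them. For 7 of the genes (Uba6, Ube2z, Birc6, Uba7, Sae1, Uba3 and Nae1) this gave 25 probe sets, of 34945 with a single symbol and 45037 in all. Uba1 and Uba2 had no such probe set and were not analysed here. The set was chosen by the intensities of Uba6, which were higher in Pxmp2-/- arrays, so its difference between genotypes is a description and carries no test. The relatives were named by function.

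The arrays came from 3 Pxmp2-/- and 3 wild-type (WT) female mice of the C57BL/6J background, with 1 Affymetrix array for each mouse. Mice of both groups had lost their ovaries at 21 days of age and received estradiol at 31 days, and fat pads 4 and 9 were taken 8 h later. All values therefore describe tissue soon after estradiol, and neither group holds untreated mice. The labels do not say how the Pxmp2 allele was made.

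Ubiquitin and its relatives (SUMO, NEDD8, ISG15, FAT10) are small proteins that cells attach to other proteins to change their fate. An activating enzyme, or E1, charges the modifier at the cost of ATP, a conjugating enzyme (E2) takes it over, and a ligase (E3) directs it to a substrate. Uba1 and Uba6 both activate ubiquitin, and Uba6 also activates FAT10. Ube2z receives ubiquitin from Uba6 and not from Uba1, and the giant protein Birc6 is likewise charged by Uba6. Uba7 activates ISG15, Sae1 with Uba2 activates SUMO, and Nae1 with Uba3 activates NEDD8.

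Array medians lay between 98.5 and 105 arbitrary intensity units. Pxmp2 read 2643, 2465 and 2797 in the WT mice and 308, 262 and 260 in the Pxmp2-/- mice, so each array matched its label, although it is not known here whether its probes fall in the disrupted stretch of the gene. The test compared log2(intensity + 16) between genotypes with limma over 27022 probe sets whose mean level was above the 40th percentile, an intensity of 59.1. The threshold was an adjusted p of 0.05 (Benjamini-Hochberg). It was met by 17 probe sets, or 0.0629%. Of the 25 member probe sets 21 were tested, and 4 were too dim (2 of Uba6, 1 of Ube2z and 1 of Birc6). The median log2 difference of all tested probe sets was -0.03. The labels do not say whether mice were littermates. The limma p-values set the genotype difference against the spread within groups of these 6 mice, which limma moderates over all tested probe sets.

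Uba6 was higher in Pxmp2-/- mice in each of its 3 tested probe sets, but the size differed among them. Probe set 1428946_at read 157, 192 and 148 in WT mice and 408, 431 and 417 in Pxmp2-/- mice. The lowest Pxmp2-/- mouse was thus more than double the highest WT mouse, and each group was tight. The mean was 166 ± 23.2 (SD, n = 3) for WT and 419 ± 11.7 for Pxmp2-/- mice. On log2 values the genotypes differed by 1.27 ± 0.11 (SE), or 2.41-fold on the log2(intensity + 16) scale, which understates changes of dim transcripts.

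The other tested probe sets of Uba6 were separated by far less. Probe set 1428944_at read 461, 477 and 498 in WT mice and 593, 557 and 568 in Pxmp2-/- mice, a log2 difference of 0.25 ± 0.08 (SE). Probe set 1428945_at read 432, 405 and 404 in WT mice and 500, 435 and 522 in Pxmp2-/- mice, a difference of 0.22 ± 0.10. In the latter the groups nearly touched, with WT 1 at 432 and Pxmp2-/- 2 at 435. These 3 probe sets were designed on the same expressed sequence according to the annotation. They read the same 6 RNA samples and are not replicates.

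The unequal size showed within each array. The log2 level of 1428946_at minus that of 1428944_at was -1.46, -1.25 and -1.65 in WT mice and -0.52, -0.36 and -0.43 in Pxmp2-/- mice. The gap between these probe sets was therefore 1.02 smaller without Pxmp2. The same quantity for 1428945_at against 1428944_at was -0.20 ± 0.10 (SD, n = 3) for WT and -0.23 ± 0.12 for Pxmp2-/- mice, with overlapping groups.

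The untested probe sets of Uba6 were dim and pointed the other way, if anywhere. Probe set 1439302_at read 73.7, 57.8 and 59.2 in WT mice and 66.0, 46.9 and 53.1 in Pxmp2-/- mice. Probe set 1443927_at read 12.2, 10.4 and 12.8 against 4.34, 11.3 and 6.72. In both the groups overlapped.

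**Figure D1:**
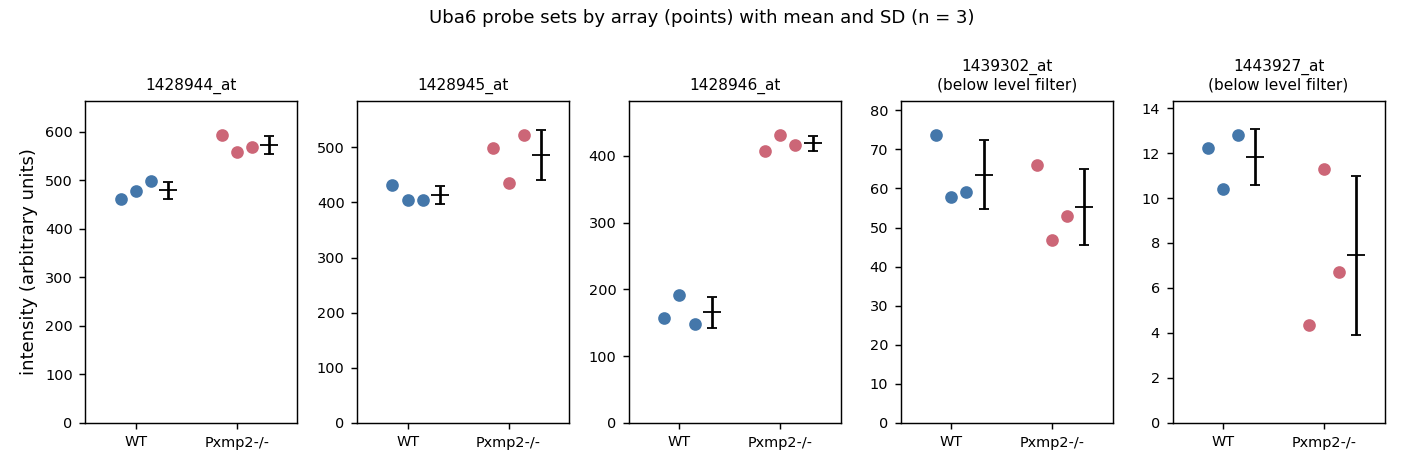
Intensity (arbitrary units, linear axes from 0) of the 5 Uba6 probe sets in each array, with WT in blue and Pxmp2-/- in red. Black marks are means with SD (n = 3). In 1428946_at the Pxmp2-/- mice sit between 408 and 431 and the WT mice between 148 and 192, whereas the steps in 1428944_at and 1428945_at are small and the dim probe sets overlap.

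Of the 21 tested member probe sets, 1428946_at of Uba6 passed the threshold, and since that difference chose the set nothing is read from this count beside the 0.0629% of all tested probe sets. The count was 0 without WT 1, WT 3, Pxmp2-/- 2 or Pxmp2-/- 3, while the difference of this probe set stayed between 1.20 and 1.37 over all fits that leave out an array. None of the 18 tested probe sets of the other members passed in limma, and 5 of them had an unadjusted p under 0.05, where 16.6% of all tested probe sets did. Among these 18, groups did not overlap for 1 that was higher and 4 that were lower, against 7.73% and 15.1% of all tested probe sets. Their median log2 difference was -0.04, close to the -0.03 of all tested probe sets. The 4 that were lower all belonged to Birc6.

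**Figure D2:**
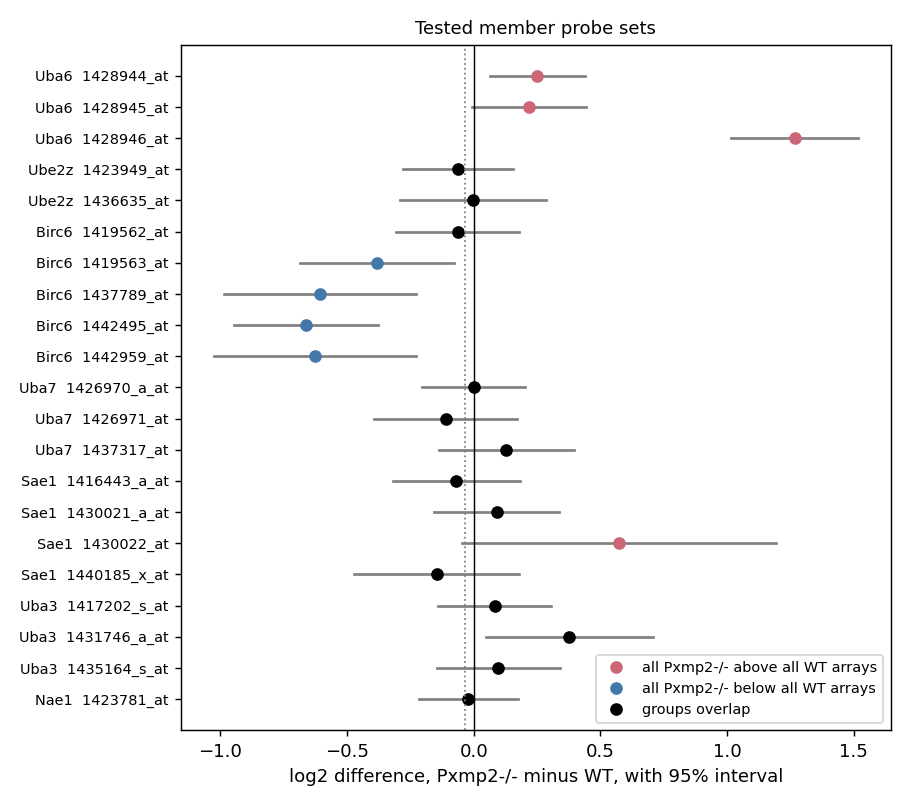
Log2 difference (Pxmp2-/- minus WT) of the 21 tested member probe sets with 95% intervals from limma. Red and blue points mark probe sets whose groups do not overlap, and the dotted line marks the median of all tested probe sets at -0.03. Uba6 1428946_at stands at 1.27, 4 Birc6 probe sets lie between -0.66 and -0.38, and most other members lie near 0.

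Ube2z, the conjugating enzyme that Uba6 charges, differed little. Its bright probe set 1423949_at read 1074, 1114 and 1163 in WT mice and 1098, 1143 and 972 in Pxmp2-/- mice. The log2 difference was -0.06 with a 95% interval from -0.28 to 0.16 (limma adjusted p = 0.762). In 1436635_at the values ran from 151 to 201 in WT and from 152 to 182 in Pxmp2-/- mice, a difference of -0.00205 with an interval from -0.29 to 0.29. Groups overlapped in both, and the interval of the dimmer probe set spans the 0.25 and 0.22 of the weaker Uba6 probe sets while that of the brighter one ends below them. The dim probe set 1459296_at read 45.4 ± 18.0 and 40.5 ± 5.77 (SD, n = 3 each).

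Birc6, an inhibitor of apoptosis that joins a conjugating and a ligating activity in 1 protein, was lower in 4 of its 5 tested probe sets without passing the threshold. Probe set 1442495_at read 90.0, 118 and 123 in WT mice and 64.9, 67.4 and 57.9 in Pxmp2-/- mice, a log2 difference of -0.66 ± 0.12 (SE; limma adjusted p = 0.133). Every Pxmp2-/- mouse was below every WT mouse, at levels near the filter. Probe set 1437789_at read 521, 444 and 531 in WT mice and 376, 356 and 246 in Pxmp2-/- mice, a difference of -0.61 ± 0.16 (limma adjusted p = 0.201). The groups were again apart, with Pxmp2-/- 3 well below the others.

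The remaining Birc6 probe sets split. Probe set 1442959_at read 242, 257 and 290 in WT mice and 220, 152 and 132 in Pxmp2-/- mice, a log2 difference of -0.63 ± 0.17 (SE; limma adjusted p = 0.202). Probe set 1419563_at read 274, 274 and 298 in WT mice and 244, 227 and 172 in Pxmp2-/- mice, a difference of -0.38 ± 0.13 (limma adjusted p = 0.24). In contrast, the brightest probe set, 1419562_at, read 1740, 1488 and 1852 in WT mice and 1691, 1558 and 1594 in Pxmp2-/- mice. Its groups overlapped fully, at a difference of -0.06 with a 95% interval from -0.31 to 0.18. The annotation ties 1419562_at and 1419563_at to the same RefSeq transcript, and they still differed. The dim probe set 1427488_a_at read 45.0 ± 6.94 and 43.7 ± 6.01 (SD, n = 3 each).

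Pxmp2-/- 3 was the lowest array in all 4 of these lower Birc6 probe sets. Without it the differences were -0.61 (1442495_at), -0.43 (1437789_at), -0.48 (1442959_at) and -0.24 (1419563_at), so the last moved by more than 1.5 times. Within arrays, the log2 level of each of the 4 minus that of 1419562_at was lower in every Pxmp2-/- mouse than in every WT mouse, with mean differences between genotypes from -0.60 to -0.32. Each gave an exact two-sided permutation p of 0.1, the smallest that 3 against 3 mice allow, and 0.2 after adjustment over the 12 such ratios of members other than Uba6. A pair of Sae1 ratios, 1430021_a_at and 1430022_at against 1416443_a_at, had groups apart in the opposite direction, with the same exact p of 0.1 and 0.2 after adjustment.

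**Figure D3:**
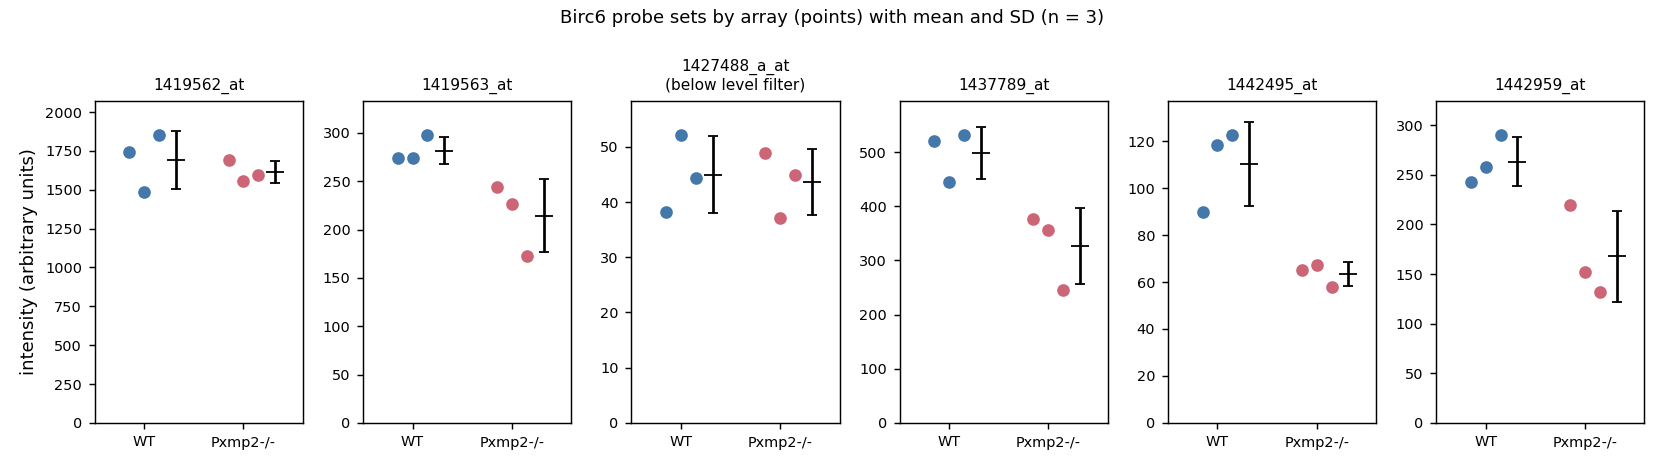
Intensity (arbitrary units, linear axes from 0) of the 6 Birc6 probe sets in each array, with WT in blue and Pxmp2-/- in red. Black marks are means with SD (n = 3). The groups overlap in the brightest probe set, 1419562_at, and in the dim 1427488_a_at, and are apart in the other 4.

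Uba7, the activating enzyme of ISG15, is known as an interferon-induced gene. Of the 9 genes, 7 matched the RefSeq promoter table (build GRCm38.p6, from 250 bases before to 50 after a gene's start), and Uba6 and Sae1 did not. A stretch before the start of Uba7 is shown because it holds an interferon regulatory factor element, AANNGAAA. The capitals mark the element, which here reads on the opposite strand, beginning 27 bases before the start (chr9:107975529-107975558, plus strand).
Uba7: actcagtctagTTTCACTTttggtttcctg
The element was searched on both strands, and 23.9% of 32851 promoters hold it. The element matched in no other member's window. A match of letters is a description and not a binding site.

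The level of Uba7 itself hardly moved. Its brightest probe set, 1426970_a_at, read 1094, 1116 and 1109 in WT mice and 1024, 1188 and 1110 in Pxmp2-/- mice. The WT mice lay in the middle of the wider Pxmp2-/- range, and the 95% interval of the log2 difference ran from -0.21 to 0.20. Probe set 1437317_at differed by 0.13 and 1426971_at by -0.11, with limma adjusted p of 0.589 and 0.665 and overlapping groups. Around it, the 14 tested probe sets of 9 interferon response genes had a median log2 difference of 0.14, and 11 were positive. None of them passed the limma threshold or had an unadjusted p under 0.05, and in none were the groups apart. Usp18, the protease that removes ISG15, read 283, 325 and 393 in WT mice and 567, 340 and 455 in Pxmp2-/- mice (log2 difference 0.41, limma adjusted p = 0.327). Oas1a, an antiviral sensor of double-stranded RNA, had a difference of 0.34 (limma adjusted p = 0.382), with Pxmp2-/- 1 highest at 466.

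Sae1, the smaller subunit of the SUMO activating enzyme, had 4 tested probe sets that disagreed in sign. The brightest, 1416443_a_at, read 1085, 1365 and 1157 in WT mice and 1186, 1158 and 1078 in Pxmp2-/- mice, a log2 difference of -0.07 with a 95% interval from -0.32 to 0.18. Probe set 1430021_a_at differed by 0.09 and 1440185_x_at by -0.15, with overlapping groups. The suffix _x_at marks probes that may also bind other transcripts. Probe set 1430022_at read 31.7, 81.8 and 80.5 in WT mice and 103, 108 and 85.0 in Pxmp2-/- mice. Its groups were apart, but WT 1 stood far below the others, and the difference of 0.57 ± 0.27 (SE; limma adjusted p = 0.325) became 0.23 without that array.

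The NEDD8 activating enzyme was near level in most of its probe sets. Nae1, its regulatory subunit, read 1711, 1606 and 1728 in WT mice and 1745, 1604 and 1625 in Pxmp2-/- mice. The log2 difference was -0.02 with a 95% interval from -0.22 to 0.17, the narrowest interval among the tested probe sets of members other than Uba6. Uba3, the catalytic subunit, read 1715 to 2113 in WT and 1890 to 2103 in Pxmp2-/- mice in 1435164_s_at, a difference of 0.10. It differed by 0.08 in 1417202_s_at. Both carry the suffix _s_at, for probes shared by several transcripts. In 1431746_a_at Uba3 read 810, 970 and 751 in WT mice and 920, 1156 and 1231 in Pxmp2-/- mice. WT 2 was above Pxmp2-/- 1 there, and the difference was 0.38 ± 0.14 (SE; limma adjusted p = 0.26).

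The wider conjugation pathways were followed in 10 lists with 194 tested probe sets of 84 genes. None of the 194 passed the limma threshold in either direction, and 25 (12.9%) had an unadjusted p under 0.05, where 16.6% of all tested probe sets did. Their median log2 difference was -0.03, the same as that of all tested probe sets to this precision. Groups were apart for 16 that were higher and 28 that were lower, beside 7.73% and 15.1% of all tested probe sets. For each list the 2 genes of lowest p are named with that probe set, and most had others that were smaller or of the other sign.

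Enzymes that pass on ubiquitin showed no common direction. Of 60 probe sets of 25 conjugating enzymes, 27 were positive and 33 negative, with a median of -0.04. The lowest p belonged to Ube2h, which works with a large ligase complex. It read 456, 465 and 467 in WT mice and 604, 719 and 666 in Pxmp2-/- mice, with every Pxmp2-/- mouse above every WT mouse, a log2 difference of 0.50 ± 0.09 (SE; limma adjusted p = 0.133). Its 3 other tested probe sets were positive too, from 0.10 to 0.32. Ube2j2, an enzyme of the endoplasmic reticulum, had a difference of -0.40 ± 0.12 (limma adjusted p = 0.214) and of -0.10 in its other probe set. The Ubr ligases recognise proteins by their first residue, and Ubr1 to Ubr3 act with Uba6 and Ube2z. Their list had a median of -0.00033 over 11 probe sets, with 1 probe set of Ubr3 at 0.23 and 1 of Ubr2 at -0.15 (limma adjusted p = 0.313 and 0.382). Their other probe sets reached 0.09 and -0.16.

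Among the modifiers and their own enzymes, values were also mixed. Urm1, a modifier that also supplies sulfur to transfer RNA, read 304, 187 and 185 in WT mice and 306, 432 and 595 in Pxmp2-/- mice in 1437227_at. WT 1 and Pxmp2-/- 1 were almost equal there, and the log2 difference of 0.92 ± 0.26 (SE) did not pass (limma adjusted p = 0.212). The 4 other probe sets of Urm1 ran from -0.30 to 0.30. Mocs3, which activates Urm1, had a difference of -0.25 ± 0.09 with groups apart (limma adjusted p = 0.252). The probe sets of Map1lc3b, an autophagy modifier that is also a substrate of Birc6, disagreed in sign. The one with the lowest p had 0.35 ± 0.12 (limma adjusted p = 0.248), a pair of others 0.11 and 0.24, and 1428024_at had -0.65. Atg7, which activates it, had -0.12 (limma adjusted p = 0.539), and its other probe sets ran from -0.09 to 0.03. The whole list of modifiers had a median of 0.00378 over 24 probe sets, and the other activating enzymes -0.09 over 5.

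Lists downstream of the NEDD8 and SUMO enzymes had medians near the -0.03 of all tested probe sets, apart from the SUMO ligases. Cullins and NEDD8 transfer factors had a median log2 difference of -0.04 over 26 probe sets. The lowest p belonged to a probe set of the cullin exchange factor Cand1 at -0.29 and one of the NEDD8 ligase Dcun1d1 at -0.32 (limma adjusted p = 0.254 and 0.262). Other probe sets of these genes went the opposite way, up to 0.21 for Cand1 and 0.31 for Dcun1d1. Ube2f, a NEDD8 conjugating enzyme, was at -0.33 in 1455569_at (limma adjusted p = 0.228) and between -0.07 and 0.17 in its 5 other tested probe sets. Atg10, which conjugates Atg12, had -0.12 (limma adjusted p = 0.538), and the list of 10 probe sets holding both had a median of -0.02. The proteases that remove these modifiers had a median of -0.04 over 18 probe sets. Single probe sets of the NEDD8 protease Senp8 and the SUMO protease Senp6 were at -0.32 and -0.36 (limma adjusted p = 0.224 and 0.264), and the other one of each was at -0.03. SUMO ligases had a median of -0.12 over 15 probe sets, with Pias1 at -0.26 and Pias3 at -0.18 (limma adjusted p = 0.329 and 0.337). The other probe sets of Pias1 lay between -0.14 and -0.08, and that of Pias3 was at 0.12.

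Relatives and targets of Birc6 in apoptosis had a median log2 difference of -0.06 over 13 probe sets. Htra2, a mitochondrial protease that counters inhibitors of apoptosis, read 613, 647 and 596 in WT mice and 525, 521 and 501 in Pxmp2-/- mice. Its groups were apart at a difference of -0.26 ± 0.08 (SE; limma adjusted p = 0.228), and its other probe set was at -0.31. Both Htra2 probe sets carry the suffix _s_at, for probes shared by several transcripts. Xiap, a caspase inhibitor, had a difference of -0.36 ± 0.12 with overlapping groups (limma adjusted p = 0.24), and its 3 other probe sets ran from -0.21 to 0.02.

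**Figure D4:**
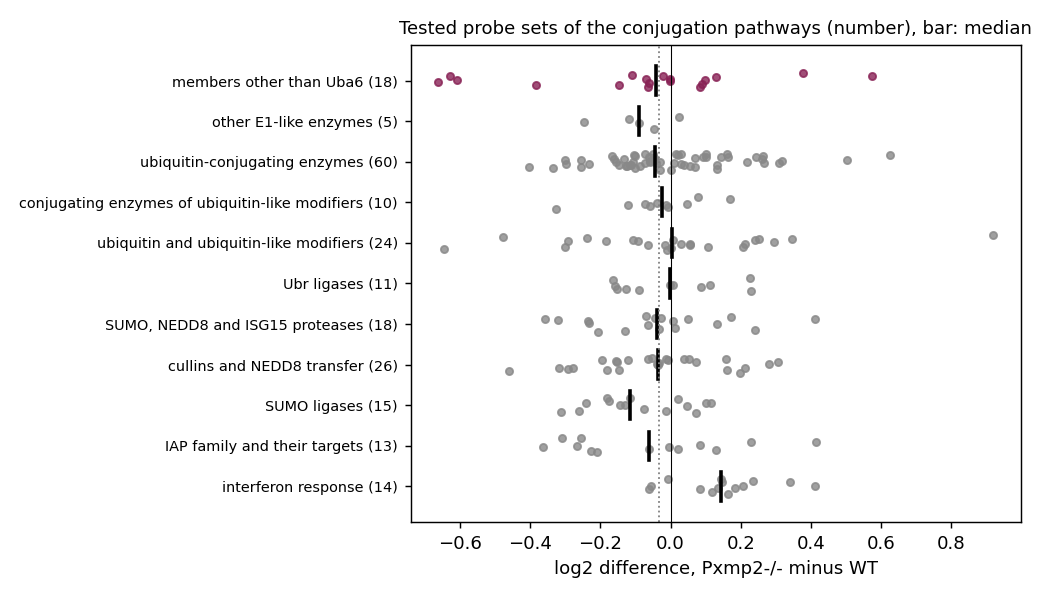
Log2 difference (Pxmp2-/- minus WT) of each tested probe set in the 10 pathway lists and of the members other than Uba6, with the number of probe sets in brackets. Black bars are medians and the dotted line is the median of all tested probe sets at -0.03. The medians of the lists lie between -0.12 and 0.14.

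Levels of cell type markers are given beside these values. None of their 45 tested probe sets passed the limma threshold, with a lowest adjusted p of 0.0589. An unadjusted p under 0.05 was found for 20 of these 45, where 16.6% of all tested probe sets had one. Sums took each marker at its brightest probe set within each array. Of the 9 tested probe sets of 6 macrophage markers, 8 were positive. The summed level of these 6 markers was 5721 to 6118 in WT and 6974 to 8569 in Pxmp2-/- mice. These sums did not overlap between genotypes. The sum of 6 endothelial markers was 14144 to 15124 in WT and 11639 to 13222 in Pxmp2-/- mice, again apart. That of 6 fibroblast markers was 26615 to 33485 and 19735 to 26739, with a slight overlap. Sums of 5 adipocyte markers overlapped too, at 55899 to 59447 and 55570 to 58544 and all 5 genes passed the level filter in this tissue, labelled as fat pad. Of 6 epithelial markers, Cdh1 alone was bright enough to be tested. Its log2 difference was 1.01, with overlapping groups (limma adjusted p = 0.252). The sum of the 6, which are mostly signals below the level filter, was 217 to 278 in WT and 313 to 391 in Pxmp2-/- mice, also apart. Among all single tested probe sets, groups were apart for 7.73% that were higher and 15.1% that were lower. Lymphocyte sums were 895 to 1130 and 1113 to 2281, and skeletal muscle sums 1029 to 1277 and 1091 to 1214, both overlapping. By direction, 6 of 7 endothelial, 10 of 11 fibroblast and 7 of 8 adipocyte probe sets tested were negative. All 4 lymphocyte probe sets tested and 3 of 5 skeletal muscle ones were positive. At least 1 array listed an intensity of 1 or less for 2 epithelial probe sets and 1 lymphocyte probe set. The part of these cell types in the values of Uba6, Birc6 and Uba7 was not tested. In whole tissue, fewer cells of a type and less RNA per cell cannot be told apart.

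Over the 6 arrays, the levels most like Uba6 1428946_at among 22598 other tested single-symbol probe sets were those of Cox18 (Pearson r = 0.997), Zfp444 (0.996), Naaa (0.995), Krt77 (0.993) and Gm17762 (0.992). Cox18 inserts a subunit of cytochrome oxidase into the mitochondrial membrane, and Naaa is a lysosomal amidase. Cox18 and Naaa lie on chromosome 5, as do Uba6 and Pxmp2, while Zfp444, Krt77 and Gm17762 lie elsewhere. For the brightest Uba6 probe set, 1428944_at, the closest were Plcg2 (0.994), Net1 (0.988), Fcgr2b (0.988), Hspa13 (0.986) and Tnfrsf19 (0.985), none of which is on the list for 1428946_at. These correlations rest on 6 arrays that fall into 2 genotypes and describe likeness of pattern. Against 1428946_at, r was -0.90 to -0.80 for the 4 lower Birc6 probe sets and -0.45 for 1419562_at. It was 0.82 for Uba3 1431746_a_at, 0.66 for Sae1 1430022_at, and between -0.51 and 0.52 for the other tested probe sets of the relatives. Against 1428944_at, r was -0.81 to -0.66 for the same 4 Birc6 probe sets and -0.15 for 1419562_at. For Uba3 1431746_a_at it was 0.60, and for Sae1 1430022_at 0.74.

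Uba6 shares chromosome 5 with Pxmp2, at a distance of 254 protein-coding genes in the RefSeq gene order. Of the 13 named genes with a probe set past the limma threshold, 9 lie on this chromosome, Uba6 and Pxmp2 among them. That is 9 of 1442 tested probe sets with a chromosome 5 gene (0.624%), against 5 of 21092 elsewhere (0.0237%). Uba6 chose the set and Pxmp2 is the disrupted gene, and without the probe sets of both it is 7 of 1438 (0.487%). These counts are a description with no test. The other members lie on other chromosomes. Among the 5 nearest annotated genes on each side of Uba6, Cenpc1 and Stap1 were bright enough to be tested. Cenpc1, a centromere protein, read 346, 403 and 330 in WT mice and 310, 259 and 293 in Pxmp2-/- mice, a log2 difference of -0.31 ± 0.11 (SE; limma adjusted p = 0.252). Stap1, a signalling adaptor of immune cells, read 43.8, 72.6 and 81.4 in WT mice and 100, 87.9 and 89.7 in Pxmp2-/- mice, a difference of 0.44 ± 0.18 (limma adjusted p = 0.282). In each the groups were apart, in opposite directions. Gnrhr and Tmprss11d had probe sets below the level filter, and the other 6 had none with a single symbol. The Pxmp2 genotype and any stretch of chromosome 5 inherited with it cannot be told apart in this design.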

How the data were processed

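The authors deposited a table of probe set intensities on a linear scale for 6 arrays of total RNA, biotin-labelled by the Affymetrix protocol, per the labels. No source used here states how signals were summarised or scaled. Each of the 6 columns matched a sample, leaving 0 over. Groups follow the genotype, and replicate numbers the sample titles. Deposited intensities were taken to log2(intensity + 16) without rescaling. Probe sets above the 40th percentile of mean level were fitted (lmFit and eBayes of limma 3.58.1, R 4.3.3, no covariates), and p-values were adjusted by Benjamini-Hochberg over these 27022. The fit was tested on simulated data.

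Gene names came from the platform annotation, and chromosomes, gene order and promoters from RefSeq (GRCm38.p6). The files name no build, so no gene or probe set is given coordinates, and the 1 promoter stretch shown carries those of the RefSeq table. Members and lists were chosen with earlier results of these data known. Named genes were all members, the 2 genes with the lowest p in each list, the 5 most alike probe sets for each of 2 Uba6 probe sets, and the 5 nearest genes on each side. Alternatives changed the scaling (quantile or median), the pseudocount (1 or 64), the filter (none or 60th percentile) and the variance model (trend), added the replicate number as a block, or left out 1 array. Deviations of same-numbered arrays correlated at 0.02, 0.04 and -0.12, so numbers were not taken to pair mice. With 3 arrays per group, their number limits precision. Plots used matplotlib 3.10.9.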

Additional observations from a re-analysis of the deposited data

How the results depend on the processing

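Of the 21 tested member probe sets, 15 kept their direction in each of the 14 alternatives that tested them, and 6, none larger than 0.07 in size, did not. After quantile normalization Nae1 turned to 0.0272, Uba7 1426970_a_at to 0.0623 and Ube2z 1436635_at to 0.0166. Over the fits that leave out 1 array, Birc6 1419562_at ranged from -0.152 to 0.00385 (positive without WT 3), Nae1 from -0.0575 to 0.00236 (without Pxmp2-/- 2) and Sae1 1416443_a_at from -0.139 to 0.0249 (without WT 2). Uba7 1426970_a_at ranged from -0.0520 to 0.0538 (positive without WT 2, WT 3 or Pxmp2-/- 1), Ube2z 1423949_at from -0.110 to 0.00497 (without Pxmp2-/- 3) and Ube2z 1436635_at from -0.0768 to 0.113 (without WT 1 or Pxmp2-/- 3). The number of member probe sets past the threshold, 1 in the chosen fit, was 0 with no level filter and with the replicate block, and 0 to 1 when arrays were left out. Among all probe sets the 17 became 1 with no level filter, 34 with a mean-variance trend, 1 with the replicate block (4012 with an unadjusted p under 0.05), and 1 to 33 when arrays were left out. The pathway lists had 0 in each alternative. The filter and left-out arrays change how many probe sets or arrays are tested, and the cause of the other shifts was not tested. Dim probe sets near the level filter, such as Birc6 1442495_at and Sae1 1430022_at, carry the least signal.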
